A study of Mus musculus with 4 samples.

Results

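High-tag islet peaks of a single condition are methylated regions that held many sequenced fragments in one pancreatic islet library and had no called region nearby in the other. They were taken from the MeDIP-seq peak lists of islets from offspring of T2D fathers (T2D islets) and of control fathers (control islets). MeDIP-seq pulls down DNA with an antibody against 5-methylcytosine and sequences it, and a peak is an interval with more reads (tags) than its surroundings. The regions were chosen by tag count and position in both islet lists. A peak was called high-tag when its tag count was in the top 10% of its own list, which came to 88 tags or more in either list, and it was kept when it lay on an autosome with no peak of the other islet list within 1000 bp. This left 3548 of 328282 autosomal islet peaks, of which 1559 were T2D-only and 1989 were control-only. The whole series held 690963 peaks in 4 lists. Tags, positions, widths, scores and enrichments of both islet lists come from the calls that chose these regions, so they are given as a description without a test.

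DNA methylation in mammals sits mostly on cytosines of CpG pairs, and most of the genome outside CpG islands is methylated. The antibody recovers DNA in proportion to how many methylated cytosines a fragment carries, so the recovered regions are those with both methylation and enough CpG. In the germ line the marks are largely erased and rewritten, which is why sperm and the somatic tissue of offspring are compared in studies of inheritance through the father.

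ICR mice, an outbred stock, were used. T2D founder males ate a high-fat diet, in which fat gave 33% of the energy, and at 12 weeks old were injected with a little STZ (streptozotocin, which damages beta cells). The diet went on for 4 weeks after the injection, and males with a fasting glucose of 7 to 11 mM were counted as T2D. Control founders received a control diet. The T2D condition is thus a diet and toxin model in the father, and the protocol gives no treatment of the offspring. Founders were mated at 16 weeks with females on standard diet, islets came from 6 offspring of T2D fathers and 6 of control fathers at 3 weeks of age, and sperm came from 6 T2D and 6 control founders at 16 weeks. Each of the 4 groups had 1 library, and the labels do not say how animals were combined or which sex the offspring had. A difference between conditions therefore has no replicate check, all intervals cover counting error only, and no p-value is given. The T2D islet list held 167325 peaks with 8204393 tags, and the control islet list 167712 peaks with 8223861 tags. The depth of the islet libraries is unknown, and the median peak had 39 tags in either list. The coordinates are on mm9, and no gene or sequence is given for them because no annotation or genome of that build was used here. For the same reason the labelled tissue was not checked against cell type markers.

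Most peaks with many tags were found in both islet lists. Of the high-tag autosomal peaks, 9.11% (1559 of 17107) were T2D-only and 11.6% (1989 of 17091) were control-only, whereas 29.5% of all autosomal peaks of either list had no partner within 1000 bp. T2D-only regions were fewer than control-only regions, with a ratio of 0.784 (95% exact binomial interval 0.733 to 0.838). The lists were balanced in what the choice started from. The ratio was 1.00 (0.980 to 1.02) for all high-tag autosomal peaks and 0.997 (0.984 to 1.01) for all autosomal peaks without a partner. With peaks ranked by the caller's score in place of tags this order was not seen. There were then 532 T2D-only and 504 control-only regions, a ratio of 1.06 (0.933 to 1.19) whose interval included equal numbers.

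In both lists the share without a partner was lower with each class of tags up to the high-tag limit. Control islets had the higher share from 60 tags upward, on both sides of the limit, and T2D islets at 18 to 39 tags. At 40 to 59 tags the shares were 19.1% in T2D islets and 19.5% in control islets, with overlapping intervals. Among peaks with 18 to 22 tags the share was 62.1% in T2D islets and 60.6% in control islets. With 60 to 87 tags it was 12.3% (95% Wilson interval 11.9% to 12.7%) in T2D islets and 14.1% (13.7% to 14.5%) in control islets. Above the limit the T2D islet share changed little, with 9.39% (8.79% to 10.03%) at 88 to 110 tags, 8.38% (7.69% to 9.12%) at 111 to 150 tags and 10.7% (8.66% to 13.2%) at 201 to 300 tags. The control islet share was higher again in the upper classes, with 11.0% (10.4% to 11.7%) at 88 to 110 tags and 14.9% (12.5% to 17.8%) at 201 to 300 tags. Above 300 tags, 7 of 75 T2D islet peaks and 20 of 98 control islet peaks had no partner.

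**Figure D1:**
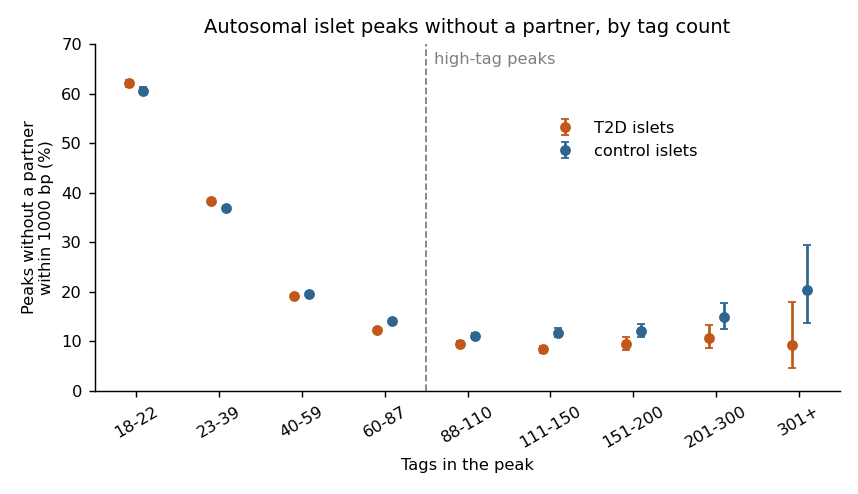
Share of autosomal islet peaks without a peak of the other islet list within 1000 bp (y axis, %) against tags in the peak (x axis, classes), for T2D islets and control islets; bars are 95% Wilson intervals. The share drops from about 62.1% and 60.6% in the lowest class to 9.39% and 11.0% just above the high-tag limit (dashed line), and further up it stays between 8.38% and 10.7% in T2D islets and is 20.4% in the top class of control islets.

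The single-condition regions were wider, less dense in tags and lower in score than high-tag peaks with a partner. T2D-only regions had a median width of 2013 bp (interval of the median 1987 to 2040), against 1744 bp for high-tag T2D islet peaks with a partner and 901 bp for all autosomal T2D islet peaks. Control-only regions had a median width of 1884 bp (1855 to 1911), against 1657.5 bp with a partner and 868 bp for all. The order held in both lists, and 51.4% of T2D-only and 41.7% of control-only regions were at least 2000 bp wide, compared with 32.3% and 26.4% of high-tag peaks with a partner and 3.94% and 3.17% of all autosomal peaks of those lists. Their tag counts were like those of other high-tag peaks, with medians of 110 tags in T2D-only and 113 tags in control-only regions and 111 tags in either set with a partner. Spread over the greater width, this gave 59.6 tags per kb in T2D-only regions against 67.4 with a partner, and 64.1 tags per kb in control-only regions against 71.1 with a partner. All autosomal peaks were less dense, with 44.3 tags per kb in T2D islets and 45.9 in control islets. Regions chosen by score in place of tags had median widths of 625.5 bp in T2D-only and 638.5 bp in control-only regions. No width of peaks with a partner is given for that ranking, and the cause of the greater width was not tested.

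The deposited score is -10 log10 of the p-value that the peak caller gave, and autosomal islet peaks start at 50. T2D-only regions had a median score of 73.5, against 122 for high-tag T2D islet peaks with a partner and 83.5 for all autosomal T2D islet peaks. Control-only regions had a median score of 76.3, against 131 with a partner and 84.0 for all. Despite their many tags, the single-condition regions thus mostly stood in the lower 50% of their own lists by score, and 35.3% of T2D-only and 40.3% of control-only regions reached the upper 50%. A score under 60, just above the lowest listed value, was found in 25.1% of T2D-only regions and in 6.62% of high-tag T2D islet peaks with a partner. The same held for 21.3% of control-only regions and 4.96% of their counterparts with a partner. Over all autosomal peaks it was 18.8% in T2D islets and 18.6% in control islets. Among the regions, 15 T2D-only and 21 control-only ones scored 200 or more. The deposited enrichment over the caller's background was also low, with medians of 4.84 in T2D-only and 5.09 in control-only regions, against 6.12 and 6.40 in the sets with a partner. All autosomal peaks had medians of 7.25 in T2D islets and 7.34 in control islets, above both.

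**Figure D2:**
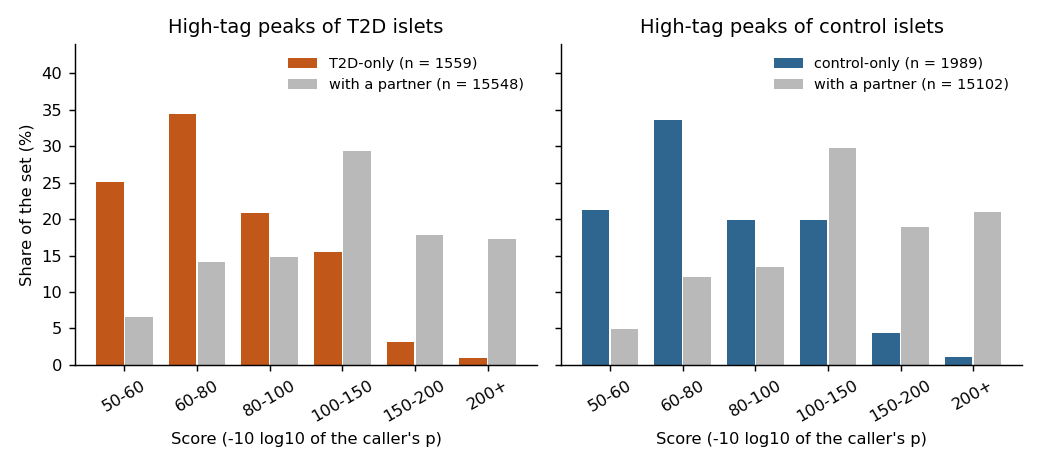
Distribution of the caller's score (x axis, classes of -10 log10 p) among high-tag autosomal peaks, as a share of each set (y axis, %), for T2D islets (left) and control islets (right). Coloured bars are single-condition regions and grey bars high-tag peaks with a partner; the coloured sets peak at 60 to 80 and the grey sets at 100 to 150.

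Within the high-tag peaks the share without a partner fell from class to class of score. With a score of 50 to 60, 27.5% (25.3% to 29.9%) of T2D islet and 36.1% (33.4% to 38.9%) of control islet high-tag peaks had no partner. With a score of 200 or more, 0.554% (0.336% to 0.912%) and 0.661% (0.433% to 1.01%) had none. The score is itself one of the caller's values for the same peak. The 51 T2D-only regions with exactly 88 tags had a median score of 71.0 and a median width of 1734 bp, and the 52 T2D islet peaks without a partner at 87 tags had 66.5 and 1671.5 bp. The 68 control-only regions at 88 tags had a median score of 80.6 and a median width of 1526.5 bp, and the 78 control islet peaks without a partner at 87 tags had 68.8 and 1661 bp.

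The T2D-only regions with the most tags were all broad, and they differed in score. The first lay on chr5:105908557-105911339 (2783 bp) with 409 tags and a score of 239. The second, on chr2:92811704-92814966 (3263 bp), had 350 tags and a score of 97.4. The third, on chr8:111472573-111476018 (3446 bp), had 339 tags but a score of 52.5. By score the third stood at percentile 4.91 of the T2D islet list and the first at percentile 98.1. The fourth lay on chr16:94482352-94486155 (331 tags, score 56.2), the next on chr9:115060503-115062992 (320 tags, score 216) and the last of the 6 on chr8:123100968-123104008 (319 tags, score 86.6). The nearest control islet peak was between 1695 bp and 7769 bp away from these 6 regions. Their enrichments, from 3.14 to 4.25, were all below the median of 4.84. Sperm peaks overlapped the third in both sperm libraries, with 105 tags in T2D sperm and 169 tags in control sperm, and the last in T2D sperm, and the other 4 had none.

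The control-only regions with the most tags reached higher counts. The first, on chr1:87487273-87491513, was 4241 bp wide, the widest autosomal peak of its list, and held 907 tags at a score of 59.9. It also led the control-only regions in tag density, with 214 tags per kb, yet by score it stood at percentile 18.4 of the control islet list. Sperm peaks overlapped it in both sperm libraries, with 1049 tags in T2D sperm and 804 tags in control sperm. The second, on chr10:57693340-57696942, had 515 tags and a score of 76.6, and its sperm peaks held 83 tags in T2D sperm and 61 tags in control sperm. The other 4 of the leading 6 had no sperm peak. They lay on chr17:12461512-12465330 (435 tags, score 56.4), chr5:106240088-106243064 (387 tags, score 137), chr5:64196850-64199797 (385 tags, score 144) and chr7:134357171-134360558 (378 tags, score 61.1). The nearest T2D islet peak was 1628 bp to 5270 bp away from the 6.

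Regions under 1500 bp made up 17.1% of the T2D-only and 22.5% of the control-only set. By tags per kb, the first T2D-only regions were chr8:19918103-19919715 (170 tags per kb), chr19:53099474-53100251 (159) and chr5:123516076-123516790 (150). The last of these, 715 bp wide with 107 tags, had the highest score of any T2D-only region, 277. For control-only regions the one on chromosome 1 was followed by chr17:46790727-46791627 (190 tags per kb), chr13:96373529-96375462 (162) and chr9:110529649-110531655 (144). All 3 had a peak in T2D sperm and none in control sperm, with 125, 180 and 230 sperm tags. The highest enrichments of T2D-only regions were 10.24 on chr8:11644375-11646379, 10.14 on chr9:96901305-96902795, 10.08 on chr10:82778279-82779635 and 9.48 on chr9:19232588-19234588. Those of control-only regions were 10.79 on chr5:66140948-66141872, 10.36 on chr10:76385910-76387253, 10.08 on chr7:103888080-103889992 and 9.73 on chr3:87907536-87908926. These regions were not among those with many tags, with 107, 88, 94 and 110 tags in the T2D-only and 88, 93, 93 and 111 tags in the control-only ones.

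The other islet library was seldom empty around these regions. The nearest control islet peak lay at a median distance of 3723 bp from a T2D-only region, and the nearest T2D islet peak at 3832 bp from a control-only region. It lay 1000 to 2000 bp away for 20.6% of T2D-only and 18.8% of control-only regions, and 2000 to 5000 bp away for 45.5% and 44.5%. More than 20000 bp away were 16 T2D-only and 22 control-only regions, or 1.03% and 1.11%. Within 10 kb of the centre, T2D-only regions had a mean of 1.80 further T2D islet peaks and 1.80 control islet peaks. Control-only regions had 1.86 further control islet peaks and 1.70 T2D islet peaks. Peaks of the list's own kind were thus no sparser beside these regions than beside high-tag peaks with a partner, which had 1.70 further peaks in T2D islets and 1.78 in control islets. Close to the regions both islet lists were sparse. For the other islet list this is in part set by the choice, which kept its peaks more than 1000 bp from the ends. At 2.5 kb after the centre T2D islet peaks covered 5.90% and control islet peaks 5.07% of T2D-only positions. The same was seen beside high-tag T2D islet peaks with a partner, where the values were 5.52% and 6.17%. At 10 kb before and after the centre, control islet peaks covered 12.5% and 13.0% of T2D-only positions, and T2D islet peaks covered 12.3% and 13.3% of control-only positions.

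**Figure D3:**
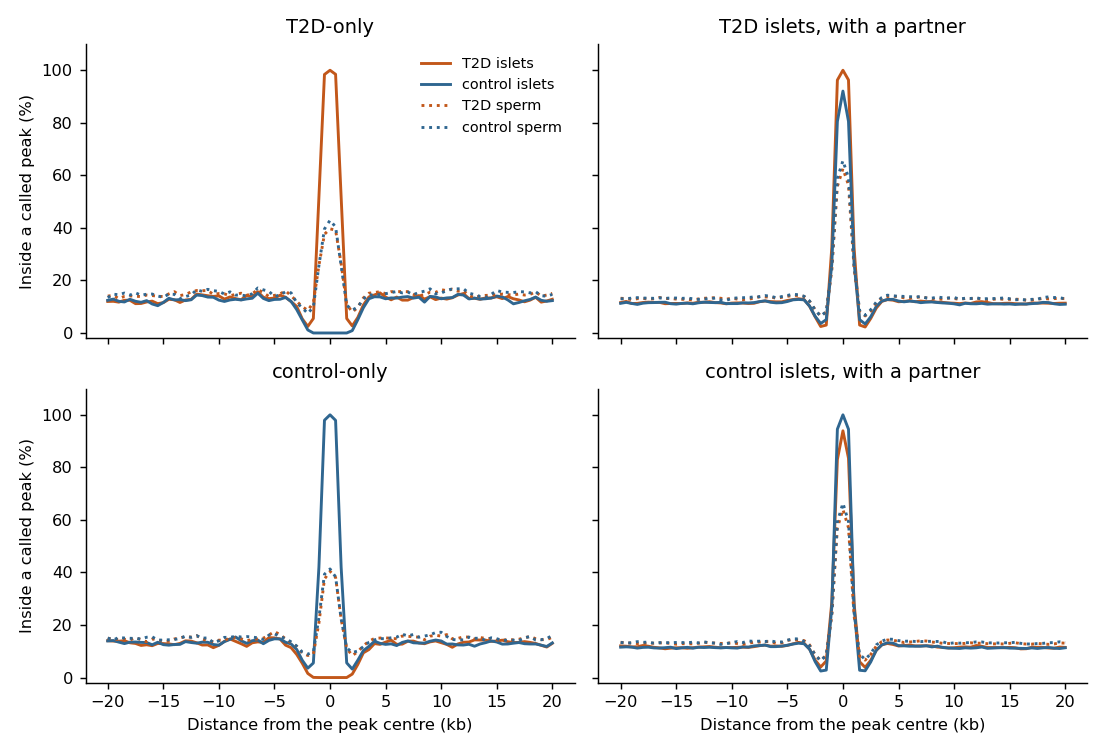
Share of regions (y axis, %) that lie inside a called peak of each of the 4 lists at a given distance from the region's centre (x axis, kb), for single-condition regions (left) and high-tag peaks with a partner (right). The list that was required to lack a peak is at 0 in the centre of the left panels by choice and lies within 1 percentage point of the list's own peaks at 5 kb before and after it; sperm lists reach 39.6% to 42.9% at the centre on the left and 62.5% to 66.4% on the right.

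With peaks ranked by tags, T2D-only regions lay in clusters less often than control-only regions. That order was not seen when peaks were ranked by score. The shares were then 7.52% (5.57% to 10.1%) of T2D-only and 4.56% (3.06% to 6.75%) of control-only regions, with overlapping intervals. Ranked by tags, within 100 kb of another region of the same direction were 37.1% (34.7% to 39.5%) of T2D-only and 47.5% (45.3% to 49.7%) of control-only regions. High-tag peaks with a partner are more numerous, and 84.2% of them in T2D islets and 84.0% in control islets had another of their kind this close. Chains of 3 or more regions, each no more than 100 kb from the next, numbered 58 for T2D-only and 138 for control-only, and held 198 and 500 regions. Outside these chains 1361 T2D-only and 1489 control-only regions remained, a ratio of 0.914 (0.849 to 0.984), and single regions gave 0.939 (0.860 to 1.03). The numbers were farthest apart inside the chains, where the ratio was 0.396 (0.334 to 0.468). The denser a set is, the more of it falls within a fixed distance, and the part of the numbers in the difference was not tested. A control-only region lay within 100 kb of 44.8% of T2D-only regions, and the figure was 40.7% the other way. Within 10 kb the figures were 134 T2D-only (8.60%) and 137 control-only regions (6.89%). No such share is given for other islet peaks, so these figures do not show whether the 2 directions lay unusually close.

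The largest T2D-only chain held 7 regions over 293.3 kb of chr5:116351505-116644838, with 290 tags at most. In this span T2D islets had 30 peaks with 3696 tags and control islets 28 peaks with 2659 tags, and 2 control-only regions lay between the T2D-only ones. A chain on chr11:98569871-98758312 held 6 T2D-only regions of 89 to 170 tags together with 3 control-only ones, and T2D islets had 26 peaks there and control islets 25. On chr8:122428446-122607670 a chain held 6 T2D-only regions of 89 to 123 tags and 1 control-only region. Both islet libraries thus had peaks along each of these 3 chains.

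The largest control-only chain held 10 regions over 324.8 kb of chr15:96294027-96618804, with 88 to 297 tags each, and 4 T2D-only regions of up to 298 tags fell inside it. T2D islets had 27 peaks with 2749 tags in this span and control islets 38 peaks with 3584 tags. A chain of 9 control-only regions ran on chr16:89792650-90004904, with 100 to 236 tags each. There T2D islets had 15 peaks with 1422 tags, against 27 peaks with 2860 tags in control islets, and 1 T2D-only region lay among them. Of the 6 chains named, this one had the largest difference in tags between the islet lists. The sperm lists in the same span went the other way, with 22 peaks and 3273 tags in T2D sperm and 19 peaks and 2524 tags in control sperm. The next chain, on chr15:96889381-97274249, held 8 control-only regions of 96 to 171 tags and 1 T2D-only region.

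A pair of compact chains, picked after their values were seen, had no peak of the other islet list at all within their span. On chromosome 8, 4 T2D-only regions lay in 24.3 kb from 19918103 to 19942374, with 275, 180, 237 and 182 tags. These were all of the T2D islet peaks there, control islets had none, and each was overlapped by peaks of both sperm libraries, whose 4 peaks each summed to 468 tags in T2D sperm and 381 tags in control sperm. On chromosome 5, 4 control-only regions lay in 17.5 kb from 115546766 to 115564245, with 122, 120, 123 and 177 tags. There T2D islets had no peak, and neither sperm library had one. The longest gap in the other islet list around any of the single-condition regions, also picked after its values were seen, was on chromosome 14. T2D islets had no peak over 601.8 kb from 44686559 to 45288352, while control islets had 8, among them control-only regions of 100 tags (44927607 to 44928541, score 352) and 93 tags (45079324 to 45081340, score 76.0). T2D sperm had 3 peaks and control sperm 2 in this gap.

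The share of high-tag peaks found in a single condition varied between autosomes. T2D-only shares ranged from 6.66% (5.16% to 8.55%) on chromosome 15 to 11.6% (9.17% to 14.5%) on chromosome 19, and control-only shares from 8.26% (6.57% to 10.3%) on chromosomes 6 and 9 to 15.2% (12.4% to 18.4%) on chromosome 19. Chromosome 9 was the only autosome with more T2D-only than control-only regions, 83 against 68, and the intervals of its shares overlapped. Chromosome 15 was farthest in the other direction, with 56 T2D-only and 126 control-only regions. Its 1 Mb windows at 58, 96 and 97 Mb, picked after their values were seen, held 7 of these T2D-only and 32 of these control-only regions. Without them 49 and 94 regions remained, so the excess of control-only regions on chromosome 15 was smaller but still present outside the windows.

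**Figure D4:**
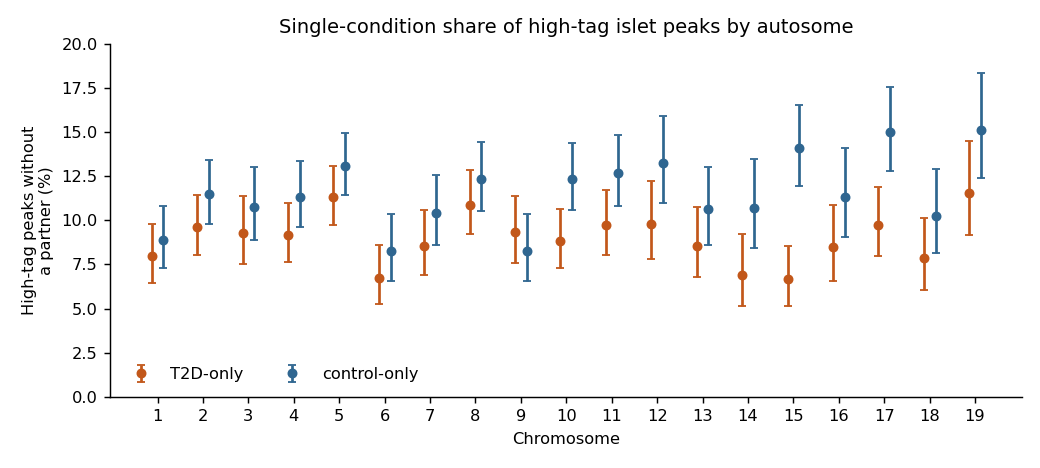
Share of high-tag islet peaks without a partner within 1000 bp in the other islet list (y axis, %) on each autosome (x axis), T2D-only left of control-only; bars are 95% Wilson intervals. Control-only shares are higher on every autosome but chromosome 9. The intervals cover counting error only, from 1 library per condition, and count clustered peaks separately. Among the 19 autosomes they are apart on chromosomes 15 and 17, which is not a test of a difference there.

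Sperm peaks were not used to choose these regions. The single-condition regions had a sperm peak less often than high-tag peaks with a partner, and more often than islet peaks without a partner in general. A peak of either sperm list overlapped 62.4% (59.98% to 64.8%) of T2D-only regions, against 69.9% of all autosomal T2D islet peaks and 77.7% (77.0% to 78.4%) of high-tag T2D islet peaks with a partner. For control-only regions the share was 61.5% (59.4% to 63.7%), against 69.9% of all autosomal control islet peaks and 78.2% (77.5% to 78.8%) with a partner. Of all autosomal peaks without a partner, whatever their tags, 54.5% (54.0% to 54.9%) in T2D islets and 54.7% (54.2% to 55.1%) in control islets had one. Most of those peaks had 18 to 39 tags. Peaks of 18 to 22 and 23 to 39 tags had median widths of 574 and 794 bp in T2D islets and 564 and 769 bp in control islets. Wider peaks meet a sperm peak more readily, and the part of width in this difference was not tested. The intervals of T2D-only and control-only regions overlapped. With high-tag replaced by the top 10% by score, the shares were 71.8% for T2D-only and 72.8% for control-only regions. The 69.9% of all autosomal peaks is not a like comparison for these, because it covers peaks of every score. No share of peaks with a partner is given for that ranking. The 2 sperm lists contributed alike, with T2D sperm peaks over 47.4% and control sperm peaks over 48.5% of T2D-only regions, and 46.0% and 46.6% of control-only regions. Among all autosomal islet peaks, T2D sperm peaks overlapped 58.7% in T2D islets and 58.6% in control islets, and control sperm peaks 59.8% in either. Counting sperm peaks within 1000 bp, the shares were 72.0% of T2D-only and 70.7% of control-only regions, against 75.6% and 75.8% of all autosomal peaks of those lists. More than 10 kb from both sperm lists were 17 T2D-only and 27 control-only regions, or 1.09% and 1.36%, against 1.30% and 1.27% of high-tag peaks with a partner and 4.61% and 4.40% of all autosomal peaks of those lists.

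The sperm share of the single-condition regions was higher at higher scores up to 200. Among high-tag peaks with a score of 50 to 60, a sperm peak overlapped 56.0% (51.1% to 60.8%) of T2D-only regions and 71.2% (68.4% to 73.9%) of T2D islet peaks with a partner, and 53.0% (48.2% to 57.7%) of control-only regions and 68.1% (64.7% to 71.3%) of control islet peaks with a partner. At a score of 100 to 150 the shares were 69.0% (62.9% to 74.5%) against 79.9% (78.7% to 81.0%) in T2D islets, and 69.9% (65.2% to 74.2%) against 80.8% (79.6% to 81.9%) in control islets. In these classes the intervals were apart. From 150 to 200 no difference was detectable at these numbers, with 39 of 50 T2D-only regions (78.0%) against 77.3% and 70 of 88 control-only regions (79.5%) against 78.9%. At 200 or more the shares were 66.7% (41.7% to 84.8%, 15 regions) against 78.3% in T2D islets and 71.4% (50.04% to 86.2%, 21 regions) against 79.2% in control islets. The part of the score in the lower sperm share was not tested. By width, with limits at 1500, 2000 and 2500 bp, a sperm peak overlapped 52.8%, 60.6%, 66.7% and 66.7% of T2D-only regions and 62.3%, 63.1%, 62.5% and 55.7% of control-only regions. High-tag peaks with a partner were higher in each width class, with 78.0%, 76.0%, 78.9% and 80.6% in T2D islets. In control islets they had 78.3%, 77.3%, 79.2% and 79.2%. Counting only regions with at least 50% of their length under peaks of a single sperm list, the T2D-only shares were 51.7%, 54.5%, 57.6% and 52.5%, and the control-only shares 60.5%, 57.9%, 52.8% and 45.2%. Counted this way, peaks with a partner fell with width as well, from 76.7% to 64.9% in T2D islets and from 77.0% to 62.9% in control islets.

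**Figure D5:**
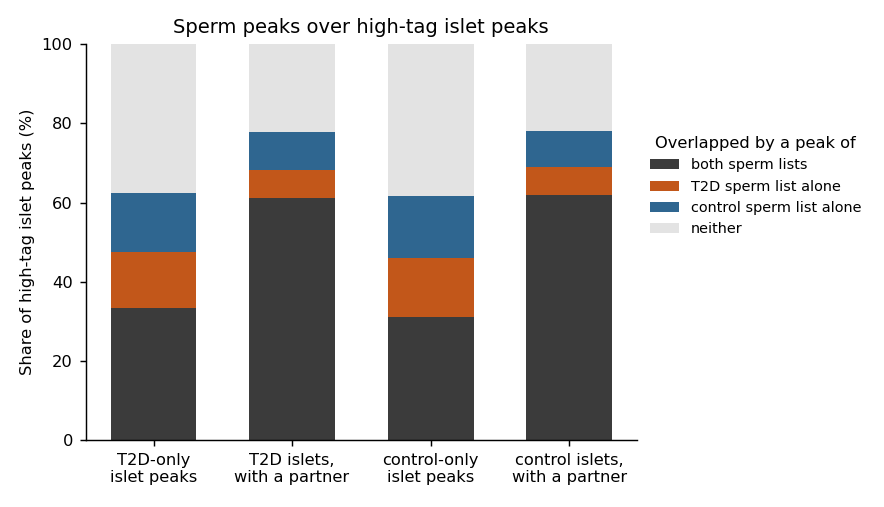
Share of high-tag autosomal islet peaks (y axis, %) overlapped by at least 1 bp by a peak of both sperm lists, of the T2D sperm list alone, of the control sperm list alone or of neither, for each single-condition set and for the high-tag peaks with a partner of the same islet list. Both sperm lists overlap 33.5% and 31.0% of the single-condition sets and 61.1% and 61.98% of the partnered sets.

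Compared with high-tag peaks with a partner, regions called in 1 islet list were more often called in just 1 sperm list, at a share close to that of all islet peaks without a partner. Of the T2D-only regions with any sperm peak, 46.4% (43.2% to 49.5%) had it in a single sperm list, against 30.6% of all autosomal T2D islet peaks with a sperm peak and 21.4% (20.6% to 22.1%) of high-tag ones with a partner. Of the control-only regions with any sperm peak, 49.6% (46.8% to 52.4%) had it in a single sperm list, against 30.7% of all and 20.7% (19.99% to 21.5%) with a partner. Among all autosomal peaks without a partner it was 48.0% (47.4% to 48.6%) in T2D islets and 48.5% (47.9% to 49.2%) in control islets. The sperm came from founders and the islets from offspring, and the rule used no sperm value. Why the share was higher than in peaks with a partner was not tested. The difference from peaks with a partner was seen in each score class examined. At scores of 50 to 80 the shares were 51.2% (47.0% to 55.3%) in T2D-only regions and 36.7% (34.8% to 38.6%) with a partner, and 54.4% (50.5% to 58.3%) in control-only regions and 37.1% (34.9% to 39.3%) with a partner. At scores of 150 or more they were 28.6% (17.8% to 42.4%, 49 regions) against 12.3% (11.4% to 13.4%), and 37.6% (28.1% to 48.3%, 85 regions) against 12.5% (11.6% to 13.5%).

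That sperm list was of the same condition as the islet list about as often as of the other. Among T2D-only regions with a peak in a single sperm list, 217 had it in T2D sperm and 234 in control sperm. Among control-only regions 298 had it in T2D sperm and 309 in control sperm. Over both directions together it was of the same condition in 526 of 1058 regions, or 49.7% (46.7% to 52.7%). In T2D-only regions it was of the same condition in 48.1% (43.5% to 52.7%) and in control-only regions in 50.9% (46.9% to 54.9%). High-tag peaks with a partner, whose islet call cannot point to a condition, had 42.4% in T2D sperm when taken from T2D islets and 56.4% in control sperm when taken from control islets. For all autosomal peaks these were 47.3% and 52.9%, near the values of the single-condition regions. All autosomal peaks without a partner had 50.7% of the same condition in T2D islets and 49.9% in control islets.

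The T2D-only regions with a peak in T2D sperm alone were led by chr8:123100968-123104008, with 319 islet and 264 sperm tags. Next came chr5:116429067-116432675 (290 islet and 343 sperm tags), chr4:148446735-148449740 (248 and 261) and chr7:34996464-34999962 (233 and 385). These are tags summed over the overlapping sperm peaks. Those with a peak in control sperm alone had islet tags of a similar range. These were chr17:27253418-27256239 (260 islet and 340 sperm tags), chr13:29998580-30002196 (241 and 316), chr7:28831748-28834546 (222 and 255) and chr16:30513860-30516541 (215 and 71).

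Among control-only regions, both kinds were also found. Those with a peak in control sperm alone began with chr4:155603772-155607292 (350 islet and 348 sperm tags), chr4:134453743-134455581 (258 and 234), chr10:61752292-61755655 (249 and 139) and chr15:58817336-58820056 (245 and 367). Those with a peak in T2D sperm alone began with chr11:97313186-97316137 (336 islet and 171 sperm tags), chr5:137736237-137739460 (321 and 315), chr13:96373529-96375462 (313 and 180) and chr19:47340034-47343637 (292 and 167). The summed sperm tags were above the top 10% limit of the sperm list, 113 tags in T2D sperm and 114 tags in control sperm, in each of these regions except chr16:30513860-30516541. That limit is for a single sperm peak, so a sum above it need not mean a high-tag sperm peak.

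The same rule applied to the sperm lists gave 2280 T2D-only and 2415 control-only sperm peaks. T2D-only islet regions overlapped 127 times (8.15%) with the T2D-only and 131 times (8.4%) with the control-only sperm peaks, compared with 0.731% and 0.847% of all autosomal T2D islet peaks and with 3.11% and 3.99% of high-tag ones with a partner. Control-only islet regions overlapped 163 times (8.20%) with the T2D-only and 179 times (9.0%) with the control-only sperm peaks, compared with 0.787% and 0.896% of all and 3.11% and 3.95% with a partner. Islet and sperm regions of this kind thus met more often than high-tag peaks with a partner did, in matching and crossed conditions alike. Wide peaks overlap more readily, and the part of width in this was not tested.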

How the data were processed

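The members and comparisons were chosen with earlier results of these data known. The authors deposited 1 MeDIP-seq peak list for each of 4 libraries on mm9, and the submitters' processing notes name CASAVA 1.4. Per the file headers of the sperm lists, MACS was run on 49 bp tags with no control file and a p-value cutoff of 1.00e-05, with the background taken over 5000 bp and at most 2 tags kept per position. The T2D sperm library held 31833988 unique tags and the control sperm library 31053754. For the islet lists the caller is not named in the sources used here, and the depth is unknown. The deposited tag counts are whole numbers per peak. The deposited score is -10 log10 of the caller's p-value, and the deposited fold enrichment is a ratio to that library's own background. Both are the authors' values for each peak and were used within a list. With no control file in the sperm calls, copy number and mappability are not removed there.

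High-tag meant a tag count of at least that of the peak at the 10% rank of the whole list, ties kept. Partners were peaks of the other islet list with at most 1000 bases between ends, and sperm peaks counted from an overlap of 1 bp. Shares have Wilson intervals, ratios of counts exact binomial intervals and medians order statistic intervals, all at 95%. Regions named are the 6 with most tags, the 4 with most tags per kb, the 4 with the highest enrichment, the 4 with most tags in each sperm class (for no sperm peak, these are among the 6) and the 3 largest chains in each direction; others are marked as picked later. Python 3.11.15, numpy 2.4.6, pandas 2.3.3 and scipy 1.17.1 were used, the members were checked with bedtools 2.31.1, and the steps were tested on simulated data. Alternatives varied the share, the ranking column, a score limit, the gap, joining of neighbours, the sperm overlap and the chain distance.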

Additional observations from a re-analysis of the deposited data

How the results depend on the processing

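No paired analysis was possible because each group had 1 library, and leaving out a library was not possible either. The number of regions moved by over 1.5 times with the top 5% by tags (738 T2D-only and 1024 control-only), the top 10% by score (532 and 504), an added limit at the upper 50% by score (551 and 801) and a gap over 5000 bp (529 and 730); it stayed within 1.5 times when only an overlap of 1 bp made a partner, or when neighbouring peaks were joined. The ratio of T2D-only to control-only numbers, examined after the data were seen, was 0.721, 1.06, 0.688 and 0.725 in the same order. Ranked by score, T2D-only regions were thus no longer fewer, and the interval of the ratio (0.933 to 1.19) included equal numbers. The ratio was 0.803 with partners by overlap and 0.786 with neighbours joined. The cause of these changes was not tested. Median width became 2315.5 and 2172.5 bp with the top 5%, 625.5 and 638.5 bp by score, 1759 and 1656 bp with the score limit, 1980 and 1837.5 bp with the wider gap and 2104.5 and 1982.5 bp with neighbours joined, and 1979 bp for T2D-only with partners by overlap. The clustered share became 25.1% and 36.7% with the top 5%, 7.52% and 4.56% by score, 16.9% and 24.1% with the score limit, 40.3% and 50.1% with partners by overlap, 17.6% and 24.4% with the wider gap, 34.0% and 45.2% with neighbours joined, and 88.6% and 90.4% at 1000 kb. T2D-only was the lower of the 2 in each of these settings except the ranking by score. The sperm share became 71.8% and 72.8% by score, 67.3% and 68.5% with the score limit, 72.0% and 70.7% for a sperm peak within 1000 bp (75.6% and 75.8% of all autosomal peaks), 54.6% and 55.1% for one over 50% of the islet peak, and 63.7% for control-only with neighbours joined. Ranked by score, the regions were thus narrower and less clustered, and the intervals of their sperm shares (67.8% to 75.5% and 68.8% to 76.5%) held the 69.9% of all autosomal peaks. Those peaks are of every score, and no share of peaks with a partner is given for this ranking. The unknown depth of the islet libraries limits what a missing call means.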

Other observations

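Few of these regions were also strong by score. The top 10% of each list by score held 51 T2D-only and 80 control-only regions, or 3.27% and 4.02%, against 30.6% and 33.7% of high-tag peaks with a partner. Regions of 200 or more in score numbered 15 and 21, with a ratio of 0.714 (0.343 to 1.45).

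Members occupied 1131 windows of 1 Mb, of which 269 held T2D-only regions alone, 347 control-only regions alone and 515 both. Windows with the most lopsided counts were picked after their values were seen. Chromosome 12 from 106 to 107 Mb held 0 T2D-only and 10 control-only regions, with 99 T2D and 123 control islet peaks in all. Chromosome 11 from 117 to 118 Mb held 0 and 8, with 86 and 116 islet peaks. In the other direction, chromosome 2 from 173 to 174 Mb held 7 T2D-only regions and 1 control-only region, with 114 and 116 islet peaks, and chromosome 8 from 48 to 49 Mb held 5 and 0, with 116 and 123.

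On X, which the rule left out, 2 of 111 high-tag T2D islet peaks and 7 of 89 high-tag control islet peaks had no partner within 1000 bp, shares of 1.80% (0.496% to 6.33%) and 7.87% (3.86% to 15.4%). The sex of the islet donors is not in the labels.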
